A study of Mus musculus with 6 samples.

Results

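Chemokines are small secreted proteins that draw leukocytes along a gradient by binding G protein-coupled receptors. The CC and CXC classes are named for the spacing of their first cysteines. Resident macrophages of the peritoneal cavity make some of these ligands at rest, among them Cxcl13, which draws B cells into the cavity, and raise others within minutes to hours of an inflammatory stimulus through transcription factors such as NF-kB. The genes described here are 10 chemokine ligands made by peritoneal macrophages, Ccl2, Ccl3, Ccl4, Ccl6, Ccl7, Ccl9, Ccl24, Cxcl2, Cxcl13 and Pf4. They were found by their symbols, each on 1 row of a table of 48709 genes.

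The RNA came from F4/80+ CD11b+ macrophages that were washed from the peritoneal cavity and sorted by flow cytometry. There were 3 libraries from Zeb1 (+/-) heterozygous mice and 3 from wild-type mice, each from 2 pooled mice. All mice were C57BL/6, 6 to 8 weeks old and untreated. The labels name neither the Zeb1 allele nor its construction, and the sources used here do not say whether the wild-type mice were littermates. Zeb1 is a DNA-binding repressor and activator of transcription best known from epithelial-mesenchymal transition, and the study compared macrophages that carry 1 intact copy of it with macrophages that carry both.

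Total counts ranged from 17859872 to 42165006 per library, and levels are given as CPM, counts scaled to library size with TMM factors. Zeb1 mRNA was at 3.85, 3.45 and 3.62 CPM in Zeb1 (+/-) and 5.44, 7.56 and 7.22 CPM in wild-type libraries, which did not overlap. It averaged 3.64 ± 0.202 CPM in Zeb1 (+/-) and 6.74 ± 1.14 CPM in wild-type libraries (SD, n = 3 each, as for all means below), a log2 fold change of −0.89 ± 0.16 (SE; edgeR adjusted p = 0.0522). Of the genes behind the sort, Adgre1 (F4/80) ranged from 2604 to 2646 CPM in Zeb1 (+/-) and from 2159 to 2230.4 CPM in wild-type libraries, and Itgam (CD11b) from 4688 to 5362 CPM in Zeb1 (+/-) and from 4705 to 5025 CPM in wild-type libraries. Summed small structural RNA was 43.6 to 45.5 CPM in the Zeb1 (+/-) libraries and 42.2 CPM in wild-type replicate 3, but 4.14 and 8.69 CPM in wild-type replicates 1 and 2. Summed markers of B cells were highest in wild-type replicate 3.

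Of the 10 chemokine ligands, all were counted well enough to be tested and none passed an adjusted p of 0.05 between the genotypes by edgeR's quasi-likelihood test with Benjamini-Hochberg adjustment over 12940 genes. Of all tested genes 0.587% passed. At an unadjusted p under 0.05 there were 2 ligands, Ccl6 and Ccl9, both with lower levels in Zeb1 (+/-), where 14.6% of all tested genes stood and 8.26% with a lower level. DESeq2 called 1 ligand, Ccl6, where it called 2.94% of the genes to which it gave an adjusted p and 2.03% as lower in Zeb1 (+/-), and limma-voom called 0, where it called 0.611%. Log2 fold changes, given throughout as Zeb1 (+/-) over wild-type, were negative for 7 of the 10 ligands and for 50.1% of all tested genes. Their median was −0.19, against −0.00038 over all tested genes. In RNA from sorted bulk cells, fewer cells of a type and less RNA per cell cannot be told apart.

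**Figure D1:**
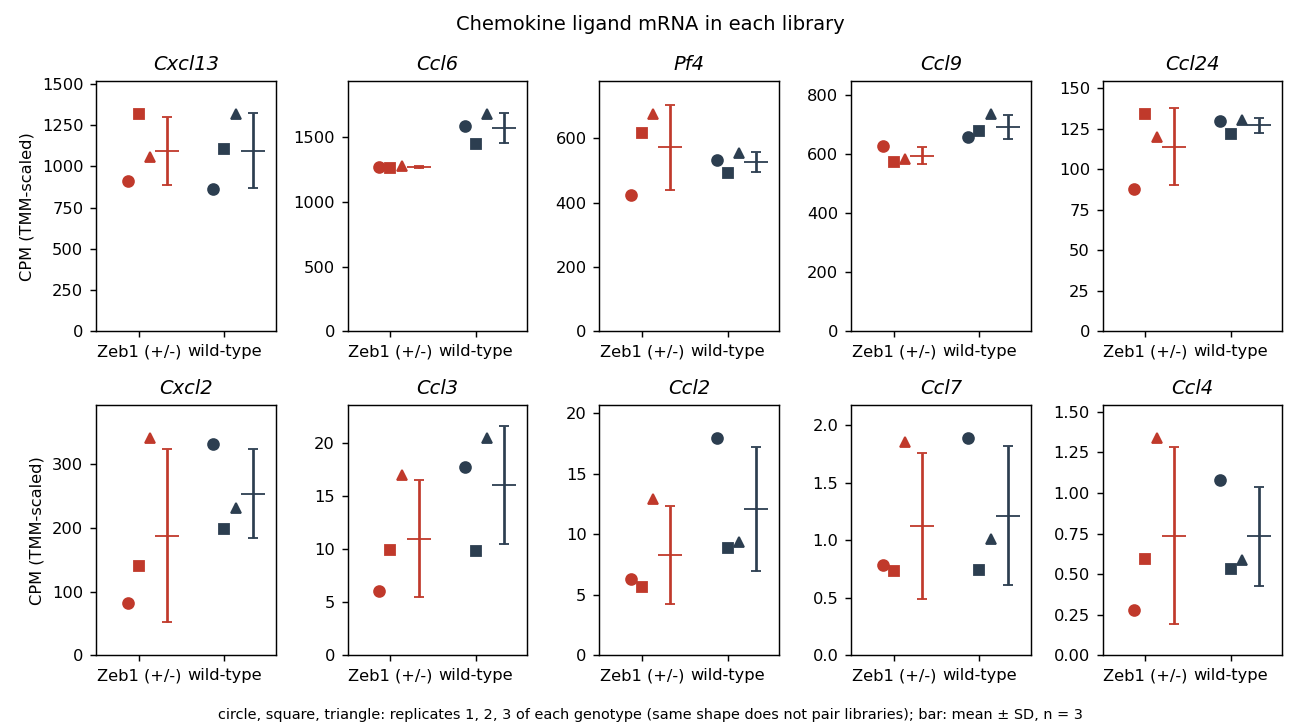
Expression of the 10 chemokine ligands in CPM (vertical axes, each from 0) in 3 Zeb1 (+/-) and 3 wild-type libraries, with points for single libraries and bars for mean ± SD. Ccl6 and Ccl9 are the 2 genes whose groups do not overlap, and Cxcl2 shows the wide spread within genotype, from 82.5 to 342 CPM in Zeb1 (+/-) libraries.

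Levels of different genes were compared per length, as counts per kilobase of merged exons scaled to the same sum in each library. On this scale 3 ligands held most of the chemokine mRNA. Cxcl13 averaged 2864 ± 533 in Zeb1 (+/-) and 2923 ± 658 in wild-type libraries, Pf4 averaged 2379 ± 492 in Zeb1 (+/-) and 2236 ± 114 in wild-type libraries, and Ccl6 averaged 2128 ± 52.3 in Zeb1 (+/-) and 2679 ± 183 in wild-type libraries. The single-library values of Cxcl13 overlapped those of Pf4 in both genotypes and those of Ccl6 in wild-type libraries, but lay above those of Ccl6 in Zeb1 (+/-) libraries. The order among these 3 rests on the length chosen. With the longest coding transcript as length Ccl6 stood first and Cxcl13 second by the mean over all 6 libraries. By that length the Zeb1 (+/-) means were 2177 for Pf4, 2137 for Cxcl13 and 1980 for Ccl6. The wild-type means were 2499 for Ccl6, 2186 for Cxcl13 and 2051 for Pf4. Cxcl13 then overlapped Ccl6 in Zeb1 (+/-) libraries too. Ccl9 followed at 589 ± 43.3 in Zeb1 (+/-) and 697 ± 52.6 in wild-type libraries, then Cxcl2 at 269.9 ± 188 in Zeb1 (+/-) and 374 ± 91.5 in wild-type libraries and Ccl24 at 265 ± 51.9 in Zeb1 (+/-) and 301 ± 7.58 in wild-type libraries, which overlapped Cxcl2. Ccl3 was lower, at 42.8 ± 20.3 in Zeb1 (+/-) and 63.9 ± 21.4 in wild-type libraries, and Ccl2 stood at 21.7 ± 9.88 in Zeb1 (+/-) and 32.3 ± 12.7 in wild-type libraries. Ccl7 was at 4.18 ± 2.24 in Zeb1 (+/-) and 4.61 ± 2.14 in wild-type libraries, and Ccl4 at 3.31 ± 2.36 in Zeb1 (+/-) and 3.38 ± 1.29 in wild-type libraries, and these lowest ligands did not differ beyond their spread. Of the length-scaled level of all 37 chemokine genes in the lists, the 10 ligands made up 98.1% to 98.8% in every library. The lists do not hold every chemokine gene, and Ccl26, the nearest coding neighbour of Ccl24, is not among the 37.

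**Figure D2:**
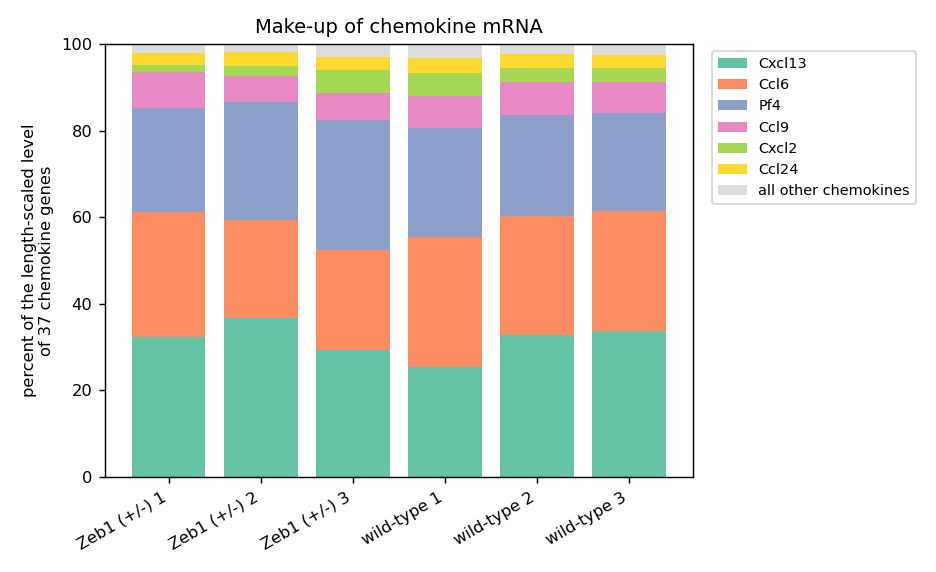
Percent of the length-scaled level of 37 chemokine genes (vertical axis) taken by 6 ligands and by all other chemokines, as 1 stacked bar for each library. Cxcl13, Ccl6 and Pf4 fill most of each bar, and the Cxcl2 band differs in height between libraries of the same genotype.

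Ccl6 and Ccl9 are CC chemokines known from rodents that act on the receptor Ccr1, found on monocytes, macrophages and neutrophils. Ccl6 (ENSMUSG00000018927.3) is on the minus strand of chromosome 11 of GRCm38, 83587882 to 83593087, and Ccl9 (ENSMUSG00000019122.8) is its nearest coding neighbour, from 83572919 to 83578636 on the same strand. Ccl6 was at 1267, 1260.2 and 1280.03 CPM in Zeb1 (+/-) libraries, against 1585, 1446 and 1681 CPM in wild-type libraries. The Zeb1 (+/-) libraries lay close together, and every wild-type library was above them. Zeb1 (+/-) libraries averaged 1269 ± 10.1 CPM and wild-type libraries 1571 ± 118 CPM, a log2 fold change of −0.31 ± 0.07 (SE; 95% confidence interval −0.47 to −0.14; edgeR adjusted p = 0.111).

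Ccl9 was at 628, 575 and 583 CPM in Zeb1 (+/-) libraries, against 658, 680.2 and 738 CPM in wild-type libraries. Here too the groups did not overlap, though the gap was narrow, between 628 and 658 CPM. On average Zeb1 (+/-) libraries held 595 ± 28.9 CPM and wild-type libraries 692 ± 41.2 CPM, a log2 fold change of −0.22 ± 0.07 (SE; 95% confidence interval −0.38 to −0.06; edgeR adjusted p = 0.222). Groups that did not overlap were found for 2 of 10 ligands and for 19.9% of all tested genes, 10.3% with the lower values in Zeb1 (+/-), so this share was near the background. Of the 50-base stretches of Ccl9, 1.97% also occur in transcripts of other genes. By DESeq2 the adjusted p of Ccl6 was 0.00774, with a log2 fold change of −0.31, and over 14 other settings including that one it ran from 0.00774 to 0.403.

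Summed markers of other macrophage and monocyte states also did not overlap between the genotypes, as for Ccl6 and Ccl9. The 17 genes listed for small peritoneal macrophages, the monocyte-derived minority of the cavity, summed to 2921 to 3107 CPM in Zeb1 (+/-) and 4342 to 4521 CPM in wild-type libraries. The most abundant of them, Retnla, a secreted protein of alternatively activated macrophages, was at 691, 744 and 796 CPM in Zeb1 (+/-) and 1066, 1162 and 1178 CPM in wild-type libraries (log2 fold change −0.61, edgeR adjusted p = 0.0186). The 12 monocyte genes summed to 403 to 445 CPM in Zeb1 (+/-) and 507 to 552 CPM in wild-type libraries. The most abundant of these was Ccr2, which is also among the 17. It was at 182, 169 and 168 CPM in Zeb1 (+/-) and 274, 271 and 254 CPM in wild-type libraries. The monocyte sum is therefore not a separate result. Of these lists 9 of 17 and 1 of 10 tested genes fell and 0 rose, where 0.433% of all tested genes fell. The 1 of 10 was Ccr2, which is counted in both lists. The 16 genes of large peritoneal macrophages, the resident majority, summed to 31537 to 33821 CPM in Zeb1 (+/-) and 28237 to 29679 CPM in wild-type libraries, and 0 of 16 passed. The part of these cell states in the values of Ccl6 and Ccl9 was not tested. With wild-type replicate 3 alone set against the Zeb1 (+/-) libraries, through a term for the structural RNA class, the log2 fold changes were −0.41 for Ccl6 and −0.31 for Ccl9, and neither passed.

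E230016K23Rik, a processed transcript on the opposite strand that overlaps Ccl6, was at 5.75, 4.98 and 4.32 CPM in Zeb1 (+/-) and 6.13, 7.85 and 10.8 CPM in wild-type libraries. Its log2 fold change was −0.71 ± 0.21 (SE; edgeR adjusted p = 0.172). Because the strand setting of the counting is not given in the sources used here, reads of the pair cannot be told apart with certainty. E230016K23Rik held at most 221 counts in a library, against 22688 or more for Ccl6. These assigned counts do not limit how many of its reads were counted for Ccl6.

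The sequences before the starts of Ccl6 and Ccl9 are shown because these neighbours were the 2 ligands whose groups did not overlap. They are from RefSeq on GRCm38.p6, the 250 bases before each annotated start, at chr11:83593088-83593337 and chr11:83578637-83578886, both on the minus strand and written 5′ to 3′. Capitals mark stretches of 10 or more bases that occur in both.
Ccl6: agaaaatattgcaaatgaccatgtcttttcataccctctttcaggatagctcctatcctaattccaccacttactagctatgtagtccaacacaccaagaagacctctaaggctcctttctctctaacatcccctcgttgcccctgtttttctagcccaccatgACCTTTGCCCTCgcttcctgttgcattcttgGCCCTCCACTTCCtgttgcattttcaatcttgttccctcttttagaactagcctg
Ccl9: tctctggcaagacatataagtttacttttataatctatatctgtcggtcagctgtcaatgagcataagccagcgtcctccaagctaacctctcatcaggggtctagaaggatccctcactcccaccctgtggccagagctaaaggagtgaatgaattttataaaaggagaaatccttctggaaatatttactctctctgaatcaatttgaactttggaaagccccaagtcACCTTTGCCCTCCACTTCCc
The longest run common to both is 13 bases and begins 14 bases before the start of Ccl9 and 55 bases before that of Ccl6. Among the 15 pairs of the 6 ligands with a RefSeq promoter entry it was the longest, followed by 10 bases for Cxcl2 and Ccl9. The match is a description of sequence and does not mark a bound site.

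Cxcl2 is a CXC chemokine that draws neutrophils through the receptor Cxcr2. The gene (ENSMUSG00000058427.10) is on the plus strand of chromosome 5, 90903871 to 90905938. Cxcl2 was at 82.5, 139.9 and 342 CPM in Zeb1 (+/-) libraries, against 332, 198 and 231 CPM in wild-type libraries. The highest and the lowest of the 6 values were both Zeb1 (+/-) libraries, and their ratio was 4.14. The average was 188 ± 136 CPM in Zeb1 (+/-) and 254 ± 69.9 CPM in wild-type libraries, a log2 fold change of −0.43 ± 0.43 (SE; 95% confidence interval −1.39 to 0.53; edgeR adjusted p = 0.681). Without Zeb1 (+/-) replicate 3 the log2 fold change was −1.18 (adjusted p = 0.0785), and without Zeb1 (+/-) replicate 1 it was −0.07.

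The spread of Cxcl2 between libraries of the same genotype was 0.78 as an SD of log2 CPM. Of 1763 tested genes with a mean of at least 100 CPM, 0 had a larger one, and their median was 0.0876. Of its 50-base stretches 5.84% also occur in transcripts of Cxcl3, which had 2 to 11 counts per library. Cxcl1, its neighbour on chromosome 5 and also a Cxcr2 ligand, was at 14.3, 17.6 and 64.0 CPM in Zeb1 (+/-) and 49.4, 34.0 and 38.9 CPM in wild-type libraries. The ratio of Cxcl2 to Cxcl1 was 5.34 to 7.94 in Zeb1 (+/-) and 5.82 to 6.73 in wild-type libraries, so both were high or low in the same libraries. Cxcr2 itself had 0 to 4 counts per library and Ly6g, a defining neutrophil marker, 0 to 2 counts.

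**Figure D3:**
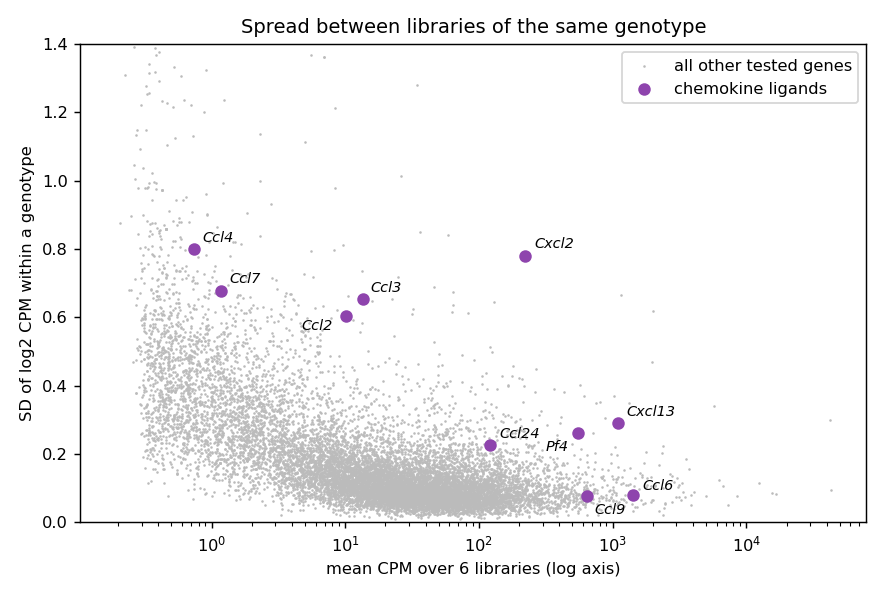
SD of log2 CPM within a genotype (vertical axis, 36 tested genes lie above its top) against mean CPM over 6 libraries (log axis), for all tested genes in grey and the 10 chemokine ligands in purple. Cxcl2 stands at 0.78 far above genes of like abundance, and Ccl6 and Ccl9 lie at 0.0779 and 0.0775.

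The 250 bases before the start of Cxcl2 (RefSeq, GRCm38.p6, chr5:90903649-90903898, plus strand) hold the kB sequence GGGAATTTCC, the kind of element that NF-kB dimers bind, in capitals below. This RefSeq start lies downstream of the gene start given above, so the last of these bases fall inside the gene as given there, and positions are counted from the RefSeq start.
Cxcl2: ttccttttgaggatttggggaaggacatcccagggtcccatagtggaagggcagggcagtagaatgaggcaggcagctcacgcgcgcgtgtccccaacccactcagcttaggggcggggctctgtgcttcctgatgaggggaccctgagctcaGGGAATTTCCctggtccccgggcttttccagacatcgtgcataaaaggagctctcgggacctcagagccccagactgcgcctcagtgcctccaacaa
It runs from 97 to 88 bases before the RefSeq start. On either strand, GGGAATTTCC was in 29 of 32851 promoter windows of 300 bases (0.0883%), among them those of Cxcl1, Cxcl2 and Cxcl3. These letters were chosen with the sequences in view. None of the other 5 ligands with an entry (Ccl3, Ccl6, Ccl9, Cxcl13 and Pf4) held them. Sequences that Zeb1 is known to bind, CAGGTG and CAGGTA, were in none of the 6 windows on either strand, against 6640 and 3929 of the 32851 windows, which says only that these letters are not there. TATAAA was in those of Cxcl13 and Ccl9, against 13.6% of all windows.

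Ccl2 (ENSMUSG00000035385.5) and Ccl7 (ENSMUSG00000035373.2) are neighbours elsewhere on chromosome 11 (82035571 to 82037453 and 82045712 to 82047525, plus strand), and both draw monocytes through Ccr2. Gm17268, which overlaps Ccl2 on the opposite strand, had 0 counts. Ccl2 was at 6.31, 5.65 and 12.9 CPM in Zeb1 (+/-) libraries, against 18.0, 8.91 and 9.35 CPM in wild-type libraries. Zeb1 (+/-) replicate 3 was above 2 of the 3 wild-type libraries. Zeb1 (+/-) libraries averaged 8.29 ± 4.02 CPM and wild-type libraries 12.1 ± 5.12 CPM, a log2 fold change of −0.55 ± 0.35 (SE; 95% confidence interval −1.34 to 0.24; edgeR adjusted p = 0.502). Leaving out Zeb1 (+/-) replicate 3 gave −1.04, while leaving out wild-type replicate 1 gave −0.13.

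Ccl7 had 14, 31 and 61 counts in Zeb1 (+/-) libraries, against 63, 21 and 19 counts in wild-type libraries, which is 0.782, 0.732 and 1.86 CPM in Zeb1 (+/-) and 1.89, 0.746 and 1.01 CPM in wild-type libraries. The same libraries as for Ccl2 were highest in each genotype, Zeb1 (+/-) replicate 3 and wild-type replicate 1. The log2 fold change of Ccl7 was −0.12 ± 0.45 (SE; 95% confidence interval −1.14 to 0.89; edgeR adjusted p = 0.919), and its sign turned when Zeb1 (+/-) replicate 1, Zeb1 (+/-) replicate 2 or wild-type replicate 1 was left out (0.04, 0.16 and 0.40).

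Ccl3 (ENSMUSG00000000982.5) and Ccl4 (ENSMUSG00000018930.3) are inflammatory CC chemokines that draw monocytes, macrophages and T cells, and Ccl3 acts on Ccr1 among others. They lie 13229 bases apart on chromosome 11 on opposite strands (83647844 to 83649355 and 83662584 to 83664683). Ccl3 was at 6.09, 9.94 and 17.0 CPM in Zeb1 (+/-) libraries, against 17.8, 9.87 and 20.5 CPM in wild-type libraries. The groups overlapped, since wild-type replicate 2 lay between Zeb1 (+/-) replicates 1 and 2. On average Zeb1 (+/-) libraries held 11.0 ± 5.53 CPM and wild-type libraries 16.0 ± 5.52 CPM, a log2 fold change of −0.50 ± 0.34 (SE; 95% confidence interval −1.28 to 0.27; edgeR adjusted p = 0.536). Leaving out Zeb1 (+/-) replicate 3 gave −0.95, leaving out wild-type replicate 2 gave −0.76, with the structural RNA class as a term it was −0.86, and without Zeb1 (+/-) replicate 1 it was −0.24.

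Ccl4 was close to the limit of what this depth can compare, with 5, 25 and 44 counts in Zeb1 (+/-) libraries, against 36, 15 and 11 counts in wild-type libraries. Its levels were 0.279, 0.591 and 1.34 CPM in Zeb1 (+/-) and 1.08, 0.533 and 0.584 CPM in wild-type libraries, so Zeb1 (+/-) libraries were both the lowest and the highest. They averaged 0.737 ± 0.545 CPM in Zeb1 (+/-) and 0.733 ± 0.303 CPM in wild-type libraries, and the interval of the log2 fold change ran from −1.09 to 1.17 around 0.04 (edgeR adjusted p = 0.976). Leaving out Zeb1 (+/-) replicate 3 gave −0.66 and leaving out wild-type replicate 1 gave 0.48, so no direction can be given for Ccl4.

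These 5 ligands, Cxcl2, Ccl2, Ccl7, Ccl3 and Ccl4, were the ones whose spread within a genotype was above the 95th percentile of all tested genes. They were at the 97.1 to 98.8 percentiles, with an SD of log2 CPM of 0.60 to 0.80, against a median of 0.13 over all tested genes. Ccl7 and Ccl4 rest on few counts, 5 to 63 per library. The lowest library was Zeb1 (+/-) replicate 1 for Cxcl2, Ccl3 and Ccl4, and Zeb1 (+/-) replicate 2 for Ccl2 and Ccl7. The highest was Zeb1 (+/-) replicate 3 for Cxcl2 and Ccl4, wild-type replicate 1 for Ccl2 and Ccl7, and wild-type replicate 3 for Ccl3.

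Over the 6 libraries, the 10 pairs among these 5 ligands had Pearson correlations of log2 CPM between 0.70 and 0.93. The highest was that of Ccl4 and Cxcl2 (Pearson r = 0.93, exact permutation p = 0.00833; Spearman rho = 0.83, exact permutation p = 0.0583), with r = 0.78 after leaving out the 2 libraries farthest from the median of Ccl4. For Ccl2 and Ccl7 they were r = 0.91 (exact permutation p = 0.00972) and rho = 0.94 (exact permutation p = 0.0167), with r = 0.85 after leaving out the 2 farthest. Pairs with other ligands reached this range too. For Ccl4 and Pf4 r was 0.79 (exact permutation p = 0.0583) and rho 0.83 (exact permutation p = 0.0583), but r was −0.043 without the 2 farthest. For Ccl3 and Ccl24 r was 0.72 (exact permutation p = 0.101) and rho 0.54 (exact permutation p = 0.297), with r = −0.25 without the 2 farthest, so both rest on those libraries. Of the 45 pairs among all 10 ligands, 6 had an unadjusted p under 0.05 and 0 passed the adjustment over 45, where the smallest adjusted p was 0.219 for Pearson and 0.50 for Spearman. The other pair among the 6 outside these 5 ligands was Ccl6 and Ccl9 (r = 0.89, exact permutation p = 0.0292; rho = 0.89, exact permutation p = 0.0333; r = 0.86 without the 2 farthest; adjusted p = 0.262 and 0.50). After the genotype means were removed the correlation of Ccl6 and Ccl9 was 0.46, against 0.98 for Ccl2 and Ccl7 and 0.99 for Ccl4 and Cxcl2. Pf4 then correlated with Ccl24 at 0.90, with Ccl3 at 0.87, with Cxcl2 at 0.85 and with Ccl4 at 0.84. No correlation is given within the structural RNA classes, which hold 4 and 2 of the 6 libraries.

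Immediate-early genes, which cells switch on within minutes of stimulation or handling, were lowest in Zeb1 (+/-) replicate 1 and highest in Zeb1 (+/-) replicate 3 by summed CPM, as Cxcl2 and Ccl4 were. Their 15 listed members, among them Fos, Jun, Atf3 and Dusp1, summed to 2662, 3135 and 4011 CPM in Zeb1 (+/-) and 3855, 3689 and 3099 CPM in wild-type libraries. By mean log2 CPM these genes were highest in wild-type replicate 1, at 6.62, against 6.60 in Zeb1 (+/-) replicate 3. Their mean log2 CPM correlated with that of Cxcl2 at r = 0.93 (exact permutation p = 0.00694; rho = 0.89, exact permutation p = 0.0333; r = 0.82 without the 2 farthest libraries). For Ccl2 these were r = 0.88 (exact permutation p = 0.0222), rho = 0.89 (exact permutation p = 0.0333) and r = 0.86. For Ccl3 the relation was weaker, at r = 0.68 (exact permutation p = 0.139) and rho = 0.54 (exact permutation p = 0.297), with r = 0.18 without the 2 farthest, and its highest library, wild-type replicate 3, had the lowest immediate-early sum of the wild-type libraries. Of 20 relations between the ligands and the means of the immediate-early and NF-kB lists, 4 had an unadjusted p under 0.05 and 0 passed the adjustment over 20, where the smallest adjusted Pearson p was 0.139. Besides the first 2 above, 1 was Ccl4 with the immediate-early mean (r = 0.89, exact permutation p = 0.0194; r = 0.71 without the 2 farthest). The last was Cxcl2 with the NF-kB mean (r = 0.85, exact permutation p = 0.0306; rho = 0.71, exact permutation p = 0.136). Its r was 0.29 without the 2 farthest libraries, so it rests on those. Between genotypes 0 of 15 immediate-early genes and 0 of 20 genes of the NF-kB list passed, with medians of −0.15 and −0.17 against −0.00038 over all tested genes. The smallest p of the first list was that of Junb (log2 fold change −0.47, edgeR adjusted p = 0.0988) and of the second that of Nfkbiz (log2 fold change −0.36, edgeR adjusted p = 0.125). The part of these genes in the spread of these ligands was not tested.

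**Figure D4:**
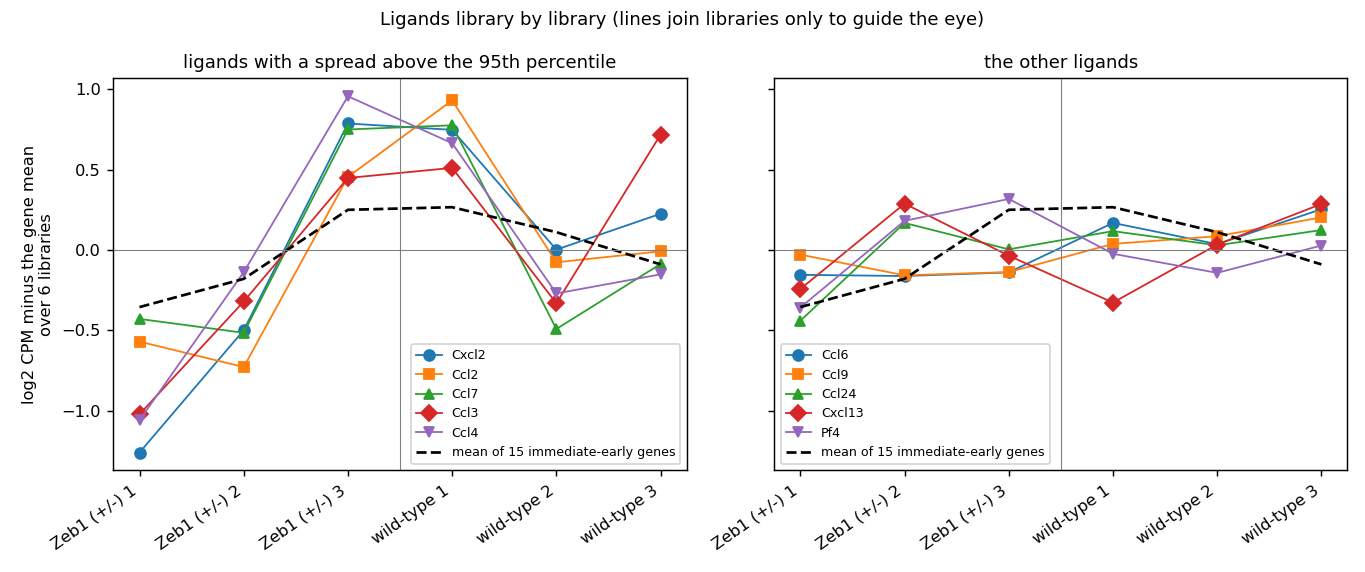
Log2 CPM of each ligand minus its own mean over 6 libraries (vertical axis) in 3 Zeb1 (+/-) and 3 wild-type libraries (horizontal axis), with the mean of 15 immediate-early genes as a dashed line. In the left panel Cxcl2, Ccl2, Ccl7, Ccl3 and Ccl4 lie below 0 in Zeb1 (+/-) replicates 1 and 2 and above 0 in Zeb1 (+/-) replicate 3 and wild-type replicate 1, while the ligands in the right panel stay closer to 0.

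Cxcl13, whose receptor Cxcr5 is found on B cells, had nearly the same mean level in both genotypes. The gene (ENSMUSG00000023078.6) is on the plus strand of chromosome 5, 95956951 to 95961068. Cxcl13 was at 912, 1319 and 1054 CPM in Zeb1 (+/-) libraries, against 860.5, 1105 and 1317 CPM in wild-type libraries. The groups covered nearly the same range. The average was 1095 ± 206 CPM in Zeb1 (+/-) and 1094 ± 229 CPM in wild-type libraries, a log2 fold change of 0.0014 ± 0.17 (SE; 95% confidence interval −0.37 to 0.38; edgeR adjusted p = 0.998). As a linear fold change this interval ran from 0.772 to 1.30, and differences within it are not excluded with 3 libraries a group. The interval is not the limit of what the test could call.

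The levels of B cell transcripts stood apart between the genotypes beside this like level of Cxcl13. The 19 listed B cell genes summed to 177 to 210.1 CPM in Zeb1 (+/-) and 235 to 414 CPM in wild-type libraries, with the highest value in wild-type replicate 3. Of 17 tested, 1 fell (Cxcr5), 0 rose and 16 did not pass, where 0.433% of all tested genes fell, with a median log2 fold change of −0.94. Cxcr5 was at 4.19, 3.21 and 3.41 CPM in Zeb1 (+/-) and 7.03, 5.79 and 6.85 CPM in wild-type libraries (edgeR adjusted p = 0.0483). Mesothelial cells and fibroblasts can also make Cxcl13. Their 16 listed markers summed to 0.558 to 0.853 CPM in Zeb1 (+/-) and 0.744 to 2.06 CPM in wild-type libraries, and Pdgfra had 0 counts in all 6. The part of B cells, mesothelial cells or fibroblasts in the values of Cxcl13 was not tested.

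Pf4, platelet factor 4, binds heparin-like sugars and is stored in platelet granules, and resident macrophages also express it. The gene (ENSMUSG00000029373.7) is on the plus strand of chromosome 5, 90772435 to 90773383. Pf4 was at 424, 616 and 677 CPM in Zeb1 (+/-) libraries, against 534, 492 and 554 CPM in wild-type libraries. All 3 wild-type values lay between the lowest and the middle Zeb1 (+/-) value. Zeb1 (+/-) libraries averaged 572 ± 132 CPM and wild-type libraries 527 ± 31.5 CPM, a log2 fold change of 0.12 ± 0.15 (SE; 95% confidence interval −0.22 to 0.46; edgeR adjusted p = 0.747). Leaving out Zeb1 (+/-) replicate 1 gave 0.30 and leaving out Zeb1 (+/-) replicate 3 gave −0.014, so no direction can be given for Pf4. Platelet markers were low beside it. Ppbp, which neighbours Pf4 and is abundant in platelets, had 1 count in all 6 libraries together, and Gp1bb and Gp6 had 0. The 11 listed markers summed to 3.29 to 5.25 CPM in Zeb1 (+/-) and 2.07 to 2.64 CPM in wild-type libraries, most of it Clec1b. These sums did not overlap and were higher in Zeb1 (+/-). Zeb1 (+/-) replicate 1 held the highest sum but the lowest Pf4 level. Only 2 of the markers could be tested, and 0 passed. Itga2b was higher in Zeb1 (+/-) by 0.48 on the log2 scale and Clec1b by 1.12. The part of platelets in the values of Pf4 was not tested.

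Ccl24, an eotaxin, draws eosinophils through Ccr3 and is induced in alternatively activated macrophages. The gene (ENSMUSG00000004814.10) is on the minus strand of chromosome 5, 135569937 to 135573049. Ccl24 was at 88.1, 134 and 119.9 CPM in Zeb1 (+/-) libraries, against 129.7, 122 and 130.3 CPM in wild-type libraries. Zeb1 (+/-) replicate 1 was the 1 low library and the other 5 lay between 119.9 and 134 CPM. On average Zeb1 (+/-) libraries held 114 ± 23.7 CPM and wild-type libraries 127 ± 4.64 CPM, a log2 fold change of −0.15 ± 0.13 (SE; 95% confidence interval −0.45 to 0.14; edgeR adjusted p = 0.623), and of 0.00401 without Zeb1 (+/-) replicate 1. Eosinophil genes Prg2 and Epx had 0 counts in all libraries, but other listed genes of eosinophils and mast cells were detected. The 12 listed genes summed to 4.91 to 6.52 CPM in Zeb1 (+/-) and 3.55 to 7.91 CPM in wild-type libraries, most abundantly Ccr3. Of 15 tested genes of alternative activation 3 fell, 0 rose and 12 did not pass, where 0.433% of all tested genes fell. All 3 are also among the 17 genes listed for small peritoneal macrophages, so this count is not a separate result. Besides Retnla these were Mrc1, the mannose receptor, at 105, 108 and 119.8 CPM in Zeb1 (+/-) and 206, 206 and 242 CPM in wild-type libraries (log2 fold change −0.97, edgeR adjusted p = 0.00347), and Fcrls, at 99.9, 104 and 101 CPM in Zeb1 (+/-) and 167, 162 and 150.5 CPM in wild-type libraries (log2 fold change −0.65, edgeR adjusted p = 0.00683). Arg1, the arginase of alternatively activated macrophages, is named after its values were seen and had the opposite sign without passing, at 161, 174 and 233 CPM in Zeb1 (+/-) and 98.2, 82.1 and 126 CPM in wild-type libraries (log2 fold change 0.89, edgeR adjusted p = 0.0648).

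**Figure D5:**
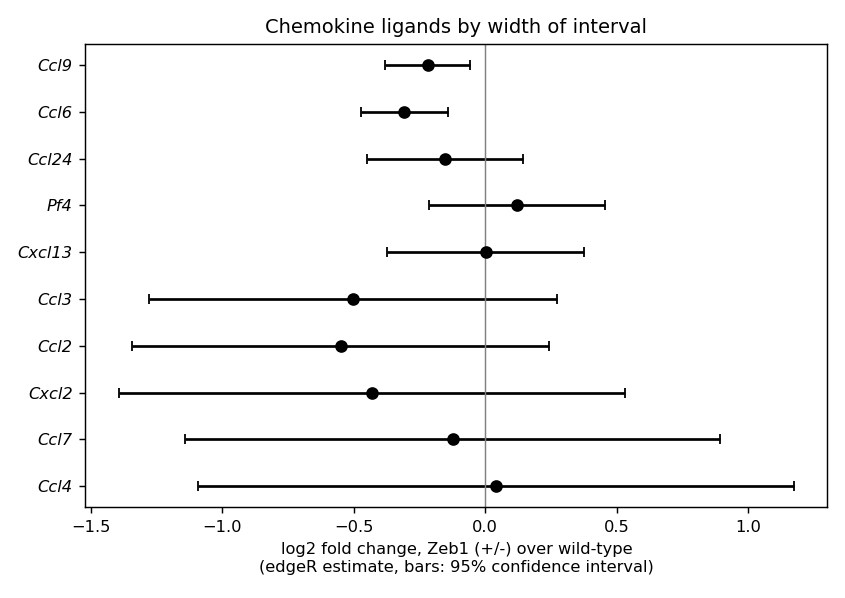
Log2 fold change of each ligand, Zeb1 (+/-) over wild-type (horizontal axis), with its 95% confidence interval from the edgeR fit over 6 libraries, ordered from the smallest to the largest SE. The intervals of Ccl9 and Ccl6 lie below 0 without passing the adjusted threshold, and those of Cxcl2, Ccl7 and Ccl4 reach more than 0.5 on both sides of 0.

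Of the receptors of these ligands, Ccr1 was at 418, 479 and 465 CPM in Zeb1 (+/-) and 424, 409 and 426 CPM in wild-type libraries. It did not pass (log2 fold change 0.11, edgeR adjusted p = 0.491). Ccr2, the receptor of Ccl2 and Ccl7, was at 182, 169 and 168 CPM in Zeb1 (+/-) and 274, 271 and 254 CPM in wild-type libraries and fell by 0.62 on the log2 scale (edgeR adjusted p = 0.00897). Ccr3, the receptor of Ccl24, had 28, 82 and 60 counts in Zeb1 (+/-) and 16, 19 and 24 counts in wild-type libraries, with a log2 fold change of 1.22 ± 0.33 (SE; edgeR adjusted p = 0.151). In all, 10 of 23 chemokine receptor genes could be tested, of which 2 fell, 0 rose and 8 did not pass, with a median of −0.16. Of all tested genes 0.433% fell. The 2 were Ccr2 and Cxcr5, which are also counted in the cell type lists above. Ccr8, Cxcr1 and Ackr4 had 0 counts.

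Of the 27 other chemokine ligands listed here, 8 could be tested and 0 passed, where 0.587% of all tested genes passed. Their median was −0.16. Of the 27, 9 had 0 counts in every library, among them Ccl11, Ccl19, Ccl20 and Cxcl5. At an unadjusted p under 0.05 there was 1 of the 8, Cxcl14, where 14.6% of all tested genes stood. It was at 5.47, 6.59 and 5.09 CPM in Zeb1 (+/-) and 7.39, 6.92 and 7.12 CPM in wild-type libraries (edgeR adjusted p = 0.324). Cxcl12, which retains leukocytes through Cxcr4 and is named after its values were seen, lay between 57.7 and 59.5 CPM in all 6 libraries. Among 12 tested genes for the glycosaminoglycans and proteoglycans that hold chemokines, 0 passed. The one with the smallest p was Sdc1, a heparan sulphate proteoglycan, at 10.7, 10.9 and 9.29 CPM in Zeb1 (+/-) and 12.4, 18.1 and 15.3 CPM in wild-type libraries (edgeR adjusted p = 0.125).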

How the data were processed

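RNAzol extraction preceded a strand-specific TruSeq mRNA preparation, per the labels' protocols. The authors deposited 1 table of estimated counts per gene. The submitters' processing notes name STAR, RSEM and edgeR without versions and the build GRCm38. The deposited expected counts were all whole numbers, so they appear to have been rounded. The annotation release and the strand setting are not given in the sources used here.

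Columns were matched to libraries through the description labels, with 0 left unmapped. Coordinates came from GENCODE on GRCm38, which holds 99.3% of the gene identifiers without version. Genotype was fitted over all 6 libraries in R 4.3.3 with edgeR 4.0.16 (filterByExpr, minimum count 10, TMM factors, quasi-likelihood test), Benjamini-Hochberg adjustment over 12940 genes and a threshold of 0.05. SE is the log2 fold change divided by the square root of F. Log2 CPM for spreads and correlations used a prior count of 2. DESeq2 1.42.0 and limma 3.58.1 were alternatives. Exact permutation tests of correlations, two-sided, covered all 720 orders of the 6 libraries.

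The replicate numbers are the set numbers of the sample titles, which do not say whether same-numbered sets belong together. They are not in the model. Libraries are pools of mice, so p-values measure the spread between pools. The fit was tested on simulated data in which the spread of a gene followed from its level alone. That setting does not cover the wide spread of Cxcl2, Ccl2, Ccl7, Ccl3 and Ccl4. The ligands, the gene lists and the tests were chosen with earlier results of these data known. The genes named are the 10 ligands, receptors of theirs, the targeted and sorted genes, and from each list those past the threshold or, failing any, the smallest p. Other genes are named as examples of a list or for their place in the genome. Protein sequences were not used here, and promoters of Ccl2, Ccl4, Ccl7 and Ccl24 were not analysed here. Some genes that the rule names are not reported here.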

Additional observations from a re-analysis of the deposited data

How the results depend on the processing

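Of the 10 ligands, 0 passed under each of 13 of the 14 other settings, and 1 (Ccl6, −0.31) passed by DESeq2. At an adjusted p under 0.1 there were 0. The count of genes over the whole table was 76 and moved to 522 without a low-count filter, 15 with the replicate number as a replicate block, 351 by DESeq2, 31 with the structural RNA class as a term, 214 at an adjusted p under 0.1, and 5 to 127 with 1 library left out. The cause was not tested. Same-numbered libraries did not deviate together (correlations over genes of −0.25, −0.03 and −0.17). With so few libraries this cannot exclude that same-numbered libraries were collected or prepared together. Ccl2, Ccl3, Ccl6, Ccl9 and Cxcl2 kept a negative log2 fold change in all 14 settings. With 1 library left out the median of the ligands ran from −0.48 to −0.03, Ccl4 from −0.66 to 0.48, Ccl7 from −0.72 to 0.40, Cxcl13 from −0.15 to 0.16, Ccl24 from −0.28 to 0.00401 and Pf4 from −0.014 to 0.30. The sign also turned for Ccl4 with the replicate block (−0.048) and by limma-voom (−0.12), for Ccl7 with the structural RNA class (0.18), and for Cxcl13 with that class (−0.27) and with a filter of 1 CPM in 3 libraries (−0.00097). Ccl4 did not pass that filter. The length of the longest coding transcript was added after the data were seen. Depth limits Ccl4 and Ccl7, with 5 to 63 counts per library.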

Other observations

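Within libraries, the ratio of Ccl2 to Ccl7 CPM was 8.07, 7.71 and 6.95 in Zeb1 (+/-) libraries, against 9.51, 11.95 and 9.26 in wild-type libraries. The groups did not overlap, and the two-sided exact permutation test gave p = 0.10, the smallest that 3 against 3 libraries allow. It was 1 of 4 ratios of neighbouring ligands taken after the values were seen. The ratio of Ccl6 to Ccl9 (p = 0.30), of Ccl3 to Ccl4 (p = 0.50) and of Cxcl2 to Cxcl1 (p = 1.0) overlapped between the genotypes by the same exact test. Ccl7 rests on 14 to 63 counts per library.

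By the correlation of log2 CPM over the 6 libraries, the gene most like it among 10791 genes was, for 9 of the ligands, Timd4 for Ccl24, Gadd45g for Ccl3, Zbtb2 for Ccl2, Tspan5 for Ccl7, Zdhhc18 for Ccl6, Adgrf5 for Ccl9, Gga2 for Cxcl2, Dcaf4 for Cxcl13 and Usp5 for Pf4. Their Pearson r ran from 0.971 (Dcaf4) to 0.999 (Zbtb2). These are the highest of many correlations over few libraries and are given as a description.

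Other cell types left few transcripts or overlapped between the genotypes. Listed genes of T and NK cells summed to 2.68 to 3.47 CPM in Zeb1 (+/-) and 2.45 to 6.10 CPM in wild-type libraries. Those of dendritic cells summed to 67.9 to 107 CPM in Zeb1 (+/-) and 80.4 to 104 CPM in wild-type libraries. Most of this was Cd209a, at 53.8 to 86.9 CPM in Zeb1 (+/-) and 62.8 to 75.7 CPM in wild-type libraries. Cd209a is also listed for small peritoneal macrophages, so this sum does not measure dendritic cells alone. Listed genes of neutrophils, most abundantly Csf3r, summed to 356 to 413 CPM in Zeb1 (+/-) and 371 to 434 CPM in wild-type libraries, and those of erythroid cells to 2.85 to 48.3 CPM in Zeb1 (+/-) and 32.0 to 214 CPM in wild-type libraries.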
